A study of Homo sapiens with 2 samples.

Results

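The AP-1 loci described here are the surroundings of 8 human genes, FOS, FOSB, FOSL1, FOSL2, JUN, JUNB, JUND and ATF3, in a list of genomic sites bound by active YAP. A peak was counted for a gene when its summit fell in a fixed hg19 window around that gene, and 10 of the 9393 peaks of the list did so. The windows were placed by gene position and together spanned 1.13 Mb, and the genes were chosen with earlier results of these data known. The cells were MCF10A, human mammary epithelial cells described as non-transformed in one label field and as a breast cancer line in another, grown with epidermal growth factor, insulin, hydrocortisone and cholera toxin. They expressed Flag-tagged YAP-5SA, an active form whose inhibitory LATS phosphorylation sites are mutated from serine to alanine, and chromatin was recovered on Flag-M2 beads (chromatin immunoprecipitation sequencing, ChIP-seq). The labels name neither the vector nor whether the cells were a clone or a pool. The study holds 1 ChIP library, with 1 peak list, and 1 input DNA library, whose reads were not analysed here. Without replicates nothing below has a test between conditions, and the read depth of the peak list is unknown.

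AP-1 is a family of dimeric transcription factors that bind DNA through a basic region and a leucine zipper. FOS proteins pair with JUN proteins, whereas JUN proteins can also pair with one another or with ATF proteins such as ATF3. Many of these genes are immediate-early genes, switched on quickly by growth factors and stress. YAP does not bind DNA by itself. It is carried to DNA mainly by TEAD factors, and in epithelial cells many TEAD-bound enhancers also carry AP-1 sites.

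Peaks were found around 5 of the 8 genes: 3 around JUN, 3 around ATF3, 2 around FOSL2 and 1 each around JUNB and FOSB. No summit fell in the windows of FOS, FOSL1 and JUND. A window with a peak was commoner here than in the list as a whole. When the genome was cut into consecutive tiles of the same lengths as the windows, 23.5% of 100 kb tiles, 25.2% of 110 kb tiles, 28.7% of 130 kb tiles, 34.7% of 170 kb tiles and 39% of 200 kb tiles held at least 1 summit, a mean of 30.1% over the 8 lengths against 62.5% of the windows. The windows held 8.85 peaks per Mb and the rest of the list 3.45 per Mb, a ratio of 2.56. The exact Poisson interval of the ratio at the 95% level was 1.23 to 4.72. It is too narrow, because it counts peaks as independent and several of the 10 lie close together. It also takes no account of the choice of genes with earlier results known, so it is no test of an excess. Counting only peaks higher than the list's median height left 3 peaks, around JUN, JUNB and ATF3, and a ratio of 1.64. No interval was computed for this ratio, and 3 peaks are too few to tell an excess from none. Tiles here and below keep each chromosome's longest stretch without peaks, which lowers their shares, whereas the densities leave that stretch out. Both include stretches with few genes and were not matched to the windows for gene content. Neither the tile shares nor the ratio therefore sets AP-1 genes apart from other genes.

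**Figure D1:**
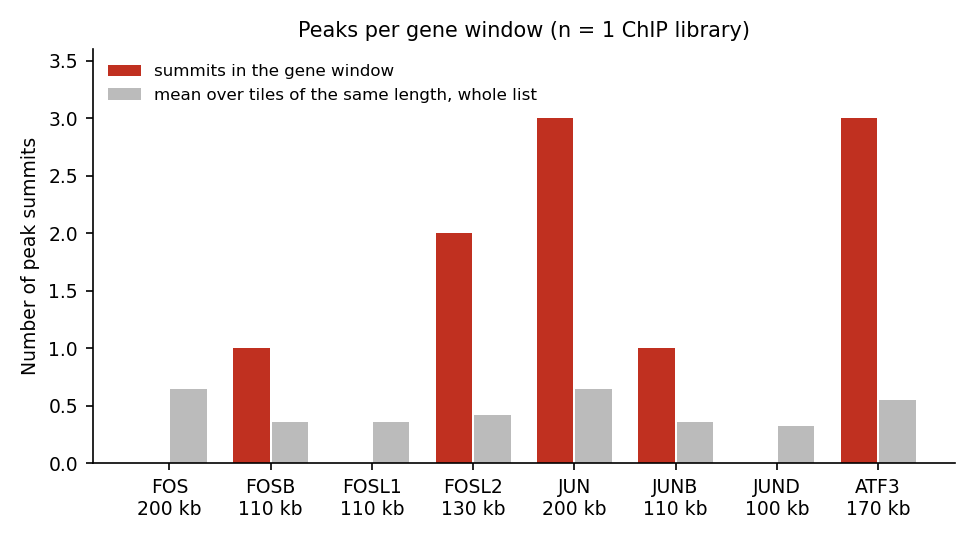
Number of peak summits in each gene window (red) beside the mean number per tile of the same length over the whole list (grey), with the window length under each gene name, from 1 ChIP library. JUN and ATF3 held 3 summits each, FOS, FOSL1 and JUND held 0, and the tile means lay between 0.322 and 0.643.

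The JUN family had 4 peaks in 2 of 3 windows, with heights from 12 to 54. The height is the authors' score at the summit. It has no stated unit and is used here only to rank peaks within the list, where the median was 24 and the quartiles were 19 and 30. JUN, which encodes c-Jun, had peaks on chromosome 1 from 59251236 to 59251736 (height 12), from 59255007 to 59255490 (height 18) and from 59274801 to 59275511 (height 54). The tallest of them stood 4.5 times as high as the lowest. At a height of 54 it was surpassed by 161 peaks, or 1.71% of the list, and it was the only peak of the 10 at 40 or more, a height reached by 8.67% of the list. The lowest was among the lowest peaks called anywhere, with 98.5% of the list higher. The 2 low summits were 3.58 kb apart, and the tall summit lay 20.0 kb from its neighbour. Among tiles of 200 kb, 6.02% held at least 3 summits over the whole list and 8.22% on chromosome 1. These tiles keep each chromosome's longest stretch without peaks and are not matched for gene content, which limits the comparison with the JUN window.

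JUNB, a JUN protein with weaker activating capacity than c-Jun, had 1 peak, on chromosome 19 from 12894380 to 12895058. Its height of 35 was exceeded by 13.3% of the list. The nearest other summit lay 204 kb away. JUND, the JUN gene that is most evenly expressed across cell states, had none. Its window lay in a peak-free stretch of 1.01 Mb on chromosome 19, between summits at 17624928 and 18637440. Stretches between neighbouring summits that are at least as long made up 5.72% of all such stretches and 37.0% of the length they cover. On chromosome 19, 24.8% of 100 kb tiles and 26.6% of 110 kb tiles held a summit, close to the shares over the whole list.

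The FOS family had 3 peaks in 2 of 4 windows, and all 3 were low, with heights of 14, 14 and 17. FOSL2, which encodes Fra-2, had peaks on chromosome 2 from 28615216 to 28615955 and from 28631992 to 28632621. Both had a height of 14, lower than 94.8% of the list, and their summits were 16.7 kb apart. At least 2 summits were held by 8.81% of 130 kb tiles. FOSB, an inducible FOS gene known for a long-lived splice form in the brain, had 1 peak on chromosome 19 from 45981249 to 45982214. It reached a height of 17, and 83.8% of the list was higher. That interval was 966 bp wide, wider than 94.5% of the 440 peaks that share its height.

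FOS, the classical immediate-early gene, and FOSL1, which encodes Fra-1, had no summit in their windows. The FOS window lay in a peak-free stretch of 690 kb on chromosome 14, between summits at 75229968 and 75919904. The FOSL1 window lay in one of 441 kb on chromosome 11, between summits at 65337824 and 65778912. Stretches at least as long as that of FOS made up 10.6% of all stretches between neighbouring summits and 50.0% of their length. For FOSL1 these shares were 20.6% and 67.7%. A missing peak says that none was called at the authors' threshold, which is not given in the sources used here, and not that YAP-5SA was absent.

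ATF3, a stress-induced member of the ATF group, had 3 peaks on chromosome 1. The first ran from 212686338 to 212686999 and was 30 high. The second, of height 20, ran from 212769081 to 212770017. The third, of height 16, ran from 212781531 to 212782373. The later 2 summits were 12.1 kb apart and the first lay 83.0 kb before them. That first peak was nearest to a window edge of all 10, at 6.62 kb inside it, whereas the nearest peak beyond the other edge had a height of 17 and lay 26.1 kb outside. In 170 kb tiles, 4.76% held at least 3 summits over the whole list and 7.05% on chromosome 1.

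**Figure D2:**
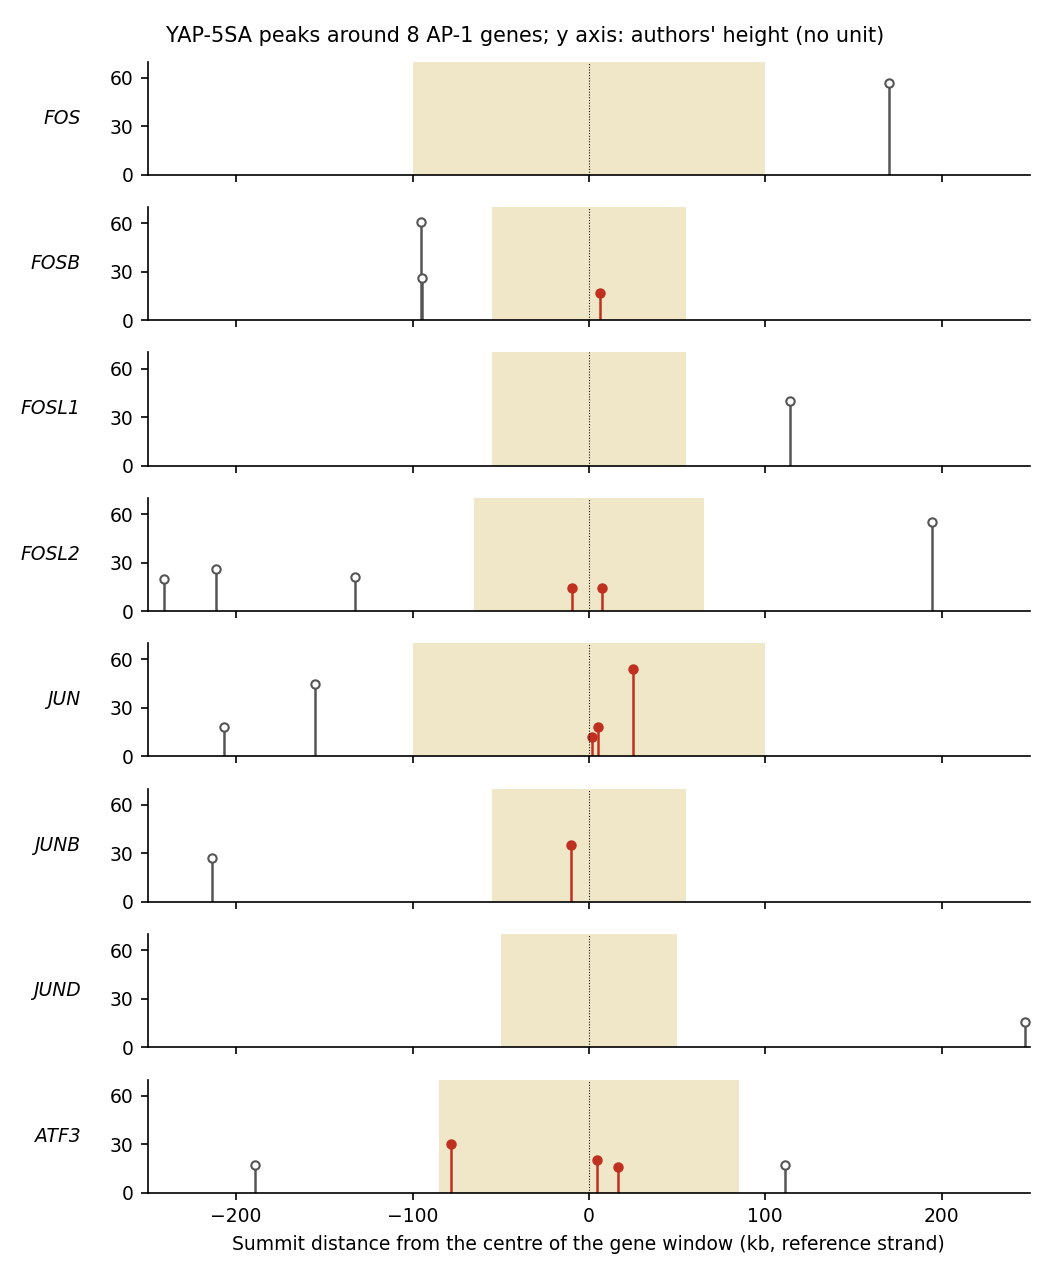
Each row shows 1 gene, with the distance of each summit from the centre of the gene window (kb) on the x axis and the peak height, the authors' score without unit, on the y axis. Shading marks the window, filled red points are the 10 peaks inside it and open points are peaks outside it, up to 250 kb from the centre. Red points gather near the centre and are mostly short, apart from JUN at 54, JUNB at 35 and ATF3 at 30.

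Most of the 10 peaks lay near the middle of their windows, and most were low. Of the 10 summits, 8 lay within 20 kb of the window centre, a central part that makes up 28.3% of the window length. Such a summit was found in 5 of the 8 windows, while 10.8% of 40 kb tiles over the list held at least 1. The 20 kb limit was set after values were seen. The centre of a window need not be the start of its gene, and without an hg19 annotation no peak was assigned to a promoter, exon or intron. These 8 central peaks had a median height of 16.5, and 7 of them were lower than the median of the list. JUNB was the exception. The 2 summits farther out, 25.1 kb above the centre at JUN and 78.4 kb below it at ATF3, were higher than the list's median.

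Over all 10 peaks the median height was 17.5, against 24 for the list. The interval of the 17.5 at the 95% level, taken from the ranked heights, was 14 to 35 and includes 24. It counts peaks as independent although several share a window, so the heights do not set these loci apart from the list. Of the 10 peaks, 7 were lower than the list's median, against 49.3% of the list. A height of 18 or less was found for 6 of 10, against 21.3%, but that limit was set after values were seen and equals the height of a JUN peak. By family, the highest peak was 54 for JUN genes, 30 for ATF3 and 17 for FOS genes. With 3 or 4 peaks each from 1 library, the order of these families cannot be separated from peak-to-peak variation. Close spacing was common as well: 7 of the 10 summits had another within 20 kb, against 29.6% of the list. The 20 kb limit was set after values were seen, and the tall JUN summit barely met it, at 19968 bp. The 7 summits belong to the JUN, FOSL2 and ATF3 windows and are each other's neighbours, so they are not 7 separate observations.

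The low peaks of FOSB and ATF3 were also wide. Of the 10 peaks, 7 were lower than the list's median, and 3 of these were wider than 800 bp. In the whole list 4627 peaks were lower than the median, and 564 of these were wider than 800 bp. The 3 were the FOSB peak and the ATF3 peaks of heights 20 and 16, with widths of 966, 937 and 843 bp. The median width of the list was 611 bp. The limit of 800 bp was set after values were seen, and the 2 ATF3 summits lay 12.1 kb apart in the same window. The 2 low JUN peaks were narrow instead, at 501 and 484 bp.

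**Figure D3:**
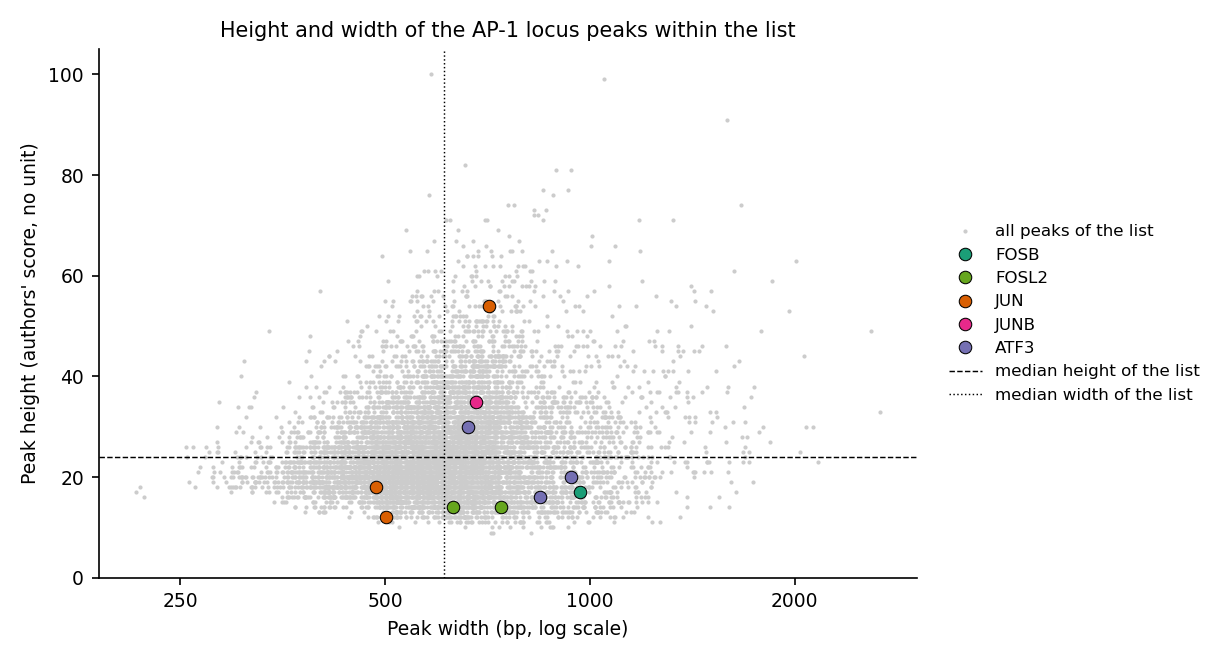
Peak height (authors' score, no unit) against peak width (bp, log scale) for all 9393 peaks in grey and for the 10 AP-1 locus peaks in colour by gene, with dashed and dotted lines at the medians of the list, 24 and 611 bp. Of the coloured points, 7 lie under the dashed line, and the FOSB point and 2 of the ATF3 points are the widest of the 10, between 843 and 966 bp.

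Promoter sequences were examined for the letters bound by the factors concerned, because TEAD is the main route of YAP to DNA and several AP-1 genes are known to be controlled by ATF and AP-1 factors. RefSeq promoters of the build GRCh38.p14 were at hand for JUN, JUNB, JUND, FOS, FOSB, FOSL2 and, with 2 starts, ATF3, and the 250 bases before each start were searched on both strands. None of these 8 stretches held the TEAD core GGAATG, which 11.9% of all 35116 promoters held, or the AP-1 site TGANTCA, which 6.57% held. Nor did any hold the CArG box CCWWWWWWGG, where W is A or T, which 1.16% held. That says only that these letters are not in these windows. The full cyclic AMP response element TGACGTCA, held by 1.65% of promoters, was found in JUND. Its inner letters GACGT, held by 15.8% and counted also inside the full element, were found in FOS, FOSB and FOSL2 besides. The variant TGACATCA, held by 2.37%, was found in JUN and in 1 of the ATF3 promoters. JUNB, which had a peak in its window, held neither the full element, nor its inner letters, nor the variant. All these letters were chosen after the promoters had been seen, so the shares do not show how unusual a match is. JUND had GACGT once more outside the full element, 88 bases before its start. One match per gene, in capitals, is shown with the 20 bases on both sides, 5′ to 3′ along the gene's strand, because they set genes with nearby peaks (JUN, ATF3, FOSL2, FOSB) beside genes without (FOS, JUND). A match is a description of letters and not a measured binding site.
JUN, chr1:58784087-58784134, minus strand: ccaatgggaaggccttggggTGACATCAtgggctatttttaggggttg
ATF3, chr1:212565264-212565311, plus strand: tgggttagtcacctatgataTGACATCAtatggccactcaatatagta
JUND, chr19:18281795-18281842, minus strand: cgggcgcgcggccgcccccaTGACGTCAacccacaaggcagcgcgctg
FOSL2, chr2:28392773-28392817, plus strand: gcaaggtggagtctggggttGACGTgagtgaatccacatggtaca
FOSB, chr19:45467917-45467961, plus strand: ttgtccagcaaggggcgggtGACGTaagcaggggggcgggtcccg
FOS, chr14:75278745-75278789, plus strand: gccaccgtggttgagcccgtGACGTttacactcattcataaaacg

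The variant lay 67 bases before the start at JUN and 123 at ATF3, counted from its first letter. The GACGT letters lay 65, 63 and 59 bases before the starts of FOSL2, FOS and FOSB, so the place was alike in FOSL2 and FOSB, which had peaks in their windows, and in FOS, which had none. In JUND, also without a peak, they lay farther from the start, at 88 and 199 bases. These positions are in GRCh38 and the peaks in hg19, so no distance between a match and a peak was taken.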

How the data were processed

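The authors sequenced ChIP and input DNA of MCF10A cells, and used BWA 0.6.1, MACS and the build hg19, per the submitters' processing notes. For MACS, the version, the threshold and the control were not stated there. The deposited file has, per the file headers, a summit track, with a position and a score per peak, and an interval track. The deposited score, called the height, is a whole number for all 9393 peaks. Both tracks were joined by line order, and all 9393 summits lay inside their interval. Interval positions are 1-based, and summits are as listed.

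Window bounds came from the given rule. Tiles ran from the first to the last summit of each chromosome, and densities left out each chromosome's longest stretch without peaks. Counting functions were tested on simulated data. The genes and windows were chosen with earlier results of these data known, and the limits of 18 in height, 800 bp and 20 kb were set after values were seen. Of the genes named, all 8 follow from the rule, with their neighbours in the gene table. Other AP-1 superfamily genes were not analysed here, because no hg19 annotation was used. The letters searched in promoters were chosen after the promoters had been seen. Alternatives were taller peaks, interval overlap, windows 25 kb wider or narrower on both sides, and each window left out. Python 3.11.15, numpy 2.4.6, pandas 2.3.3, scipy 1.17.1 and matplotlib 3.10.9 were used.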

Additional observations from a re-analysis of the deposited data

How the results depend on the processing

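No paired analysis was possible because neither group has a second library, and leaving out replicates was likewise impossible. Restriction to peaks higher than the list's median left 3 of the 10 peaks, in 3 of 8 windows (JUN, JUNB and ATF3), with a density ratio of 1.64 against 2.56 and a median height of 35 by construction. Windows 25 kb wider on both sides held 10 peaks in 5 windows with a ratio of 1.89, and windows 25 kb narrower held 9 in 5 windows with a ratio of 3.57. Placing peaks by interval overlap changed no value. Leaving out each window in turn gave 7 to 10 peaks, 4 to 5 windows with a peak, ratios from 2.11 to 3.12 and median heights from 17 to 19. Unknown depth, 1 library and 10 peaks limit all of these values.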

Other observations

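Some of the nearest peaks outside the windows were tall. Of the 16 peaks that were nearest to a window on either side, 4 had a height of 40 or more, against 8.67% of the list, although their median was 20.5. Of the 4 peaks of height 40 or more, one of height 57 lay 69.9 kb beyond the FOS window and one of 55 lay 130 kb beyond that of FOSL2. Both lay towards higher positions, as did one of 40 located 58.9 kb beyond the FOSL1 window. The one of 45 lay 55.2 kb outside the JUN window, towards lower positions. Outside the FOSB window, towards lower positions, lay a pair of heights 26 and 61, at 39.7 and 40.2 kb, whose intervals were 15 bp apart. In the GRCh38 gene order, the next protein-coding genes beyond FOS on the side of its tall peak are JDP2 and BATF, and BATF3 is the second beyond ATF3. All 3 encode further proteins of the AP-1 superfamily. No peak was assigned to them.

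The letters TATAAA, held by 10.7% of promoters in the 250 bases before the start, were found 30 bases before FOSB, 31 before JUNB and 33 before FOS. ATF3 had them at 230 bases before 1 of its starts. These letters too were chosen after the promoters had been seen.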
